A study of Homo sapiens with 12 samples.

Results

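The genes described here are 43 core components of the spliceosome, the machine that removes introns from pre-mRNA, out of the 58735 genes in the deposited count table. They were taken as a list of symbols, which was drawn up with earlier results of these data known, and all 43 symbols were found. By role they fall into 3 proteins of the U1 snRNP, 14 of the U2 snRNP and of branch point recognition, the 7 proteins of the Sm ring, 8 of the U5 snRNP and the U4/U6.U5 tri-snRNP, 8 of the PRPF19 complex and its partners, and 3 DEAH-box helicases. The spliceosome is built anew on each intron. The U1 snRNP pairs with the donor site, SF1 and the U2AF proteins mark the branch point and the acceptor, and the U2 snRNP then takes the branch point over. The tri-snRNP brings in U5 and the paired U4/U6, helicases pull U4 away, the PRPF19 complex stabilizes the active site, and DEAH-box helicases drive the later rearrangements and the release of the mRNA.

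Ribosome footprinting (Ribo-seq, which counts mRNA fragments protected by ribosomes) and RNA-seq of total RNA were carried out on 293T4A cells, a human embryonic kidney line carrying a doxycycline-inducible 4EBP1-4A, a form of the translation repressor 4EBP1 whose phosphorylation sites were changed to alanine. Each assay has 3 libraries of cells given DMSO and 3 of cells given doxycycline at 2 mg/mL, and all cells, controls included, carried the construct and were exposed to cycloheximide for 10 min. The labels give the doxycycline treatment as 12 h, the text of the series as 2 h and the results text of the study a longer time than either. The cells were transduced with a lentivirus and sorted for GFP, and only 1 line was used. The study calls its replicates biological, but the labels do not say how the cultures were separated, and p-values measure the spread between these libraries.

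Between 51519700 and 57824136 reads fell on genes in the DMSO libraries of RNA-seq, and between 21687906 and 47862104 in the doxycycline libraries, whereas the range in Ribo-seq was 210186 to 1002424. Doxycycline replicate 3 stood apart in RNA-seq. Only 5.94% of its reads fell on genes, against 19.7% to 30.8% in the other 5 libraries, and its log2 levels correlated with theirs at r = 0.968 to 0.985, against 0.995 or more among the others. The RNA-seq calls are therefore given with and without it, and no call was made with it. Non-unique alignments made up 54.9% to 62.3% of the DMSO libraries and 65.4%, 69.9% and 88.4% of doxycycline libraries 1, 2 and 3. This share thus moved with the treatment. Whether a read with several alignments was tallied once is not given, so these shares and those on genes may not be shares of reads. EIF4EBP1, the gene of the induced protein, was higher in every doxycycline library (260 to 281.3 CPM, against 155.7 to 169.4). The neurofilament genes NEFL and NEFM, known marks of this kidney line, lay at 67 to 175 CPM and vimentin at 770 to 923 CPM. The keratins KRT8 and KRT18 were lower, at 6.02 to 11.2 and 22.7 to 36.9 CPM. Of the markers of blood, liver, vessel and connective tissue 5 of 7 stayed under 1 CPM in every RNA-seq library, and of epidermis 6 of 7. The exceptions were COL1A1 (8.37 to 24 CPM), COL3A1 (2.33 to 3.59 CPM) and KRT10 (2.21 to 5.73 CPM). CPM is the count of a gene scaled to the reads on all genes of its library, here with TMM factors in RNA-seq.

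In the DMSO-treated cells all 43 genes were transcribed, at levels that differed widely between subunits of the same particle. Per kilobase of exon, the highest level was that of the Sm protein SNRPD2, at 111 ± 10.2 CPM per kb (SD, n = 3), and that of SF3B5, a small subunit of the SF3b complex that grips the branch point, was 109 ± 6.40 CPM per kb (SD, n = 3). The pair did not differ beyond this spread. PRPF8, the large scaffold around the catalytic RNA, followed at 90.8 ± 2.95 CPM per kb, and SNRPC, which steadies U1 on the donor site, at 81.0 ± 3.41 CPM per kb (SD, n = 3 each). Low in the order were AQR, an RNA helicase that binds introns, at 8.58 ± 0.478 CPM per kb, and SNRPG, another Sm protein, at 8.92 ± 0.794 CPM per kb (SD, n = 3 each). These 2 neighbours did not differ beyond their spread either. SNRPG and SNRPD2 sit in the same ring in equal numbers, and their mRNA levels per kilobase had ranks 41 and 1. SF3A1 was at 30.5 ± 1.29 CPM per kb and SNRNP200 at 52.3 ± 3.84 CPM per kb (SD, n = 3 each), the ranks 20 and 11 among the 43. Per kilobase of the longest transcript instead of all exons, SNRPD2 stayed first and U2AF1 last, but DHX15 moved from rank 14 to rank 3.

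**Figure D1:**
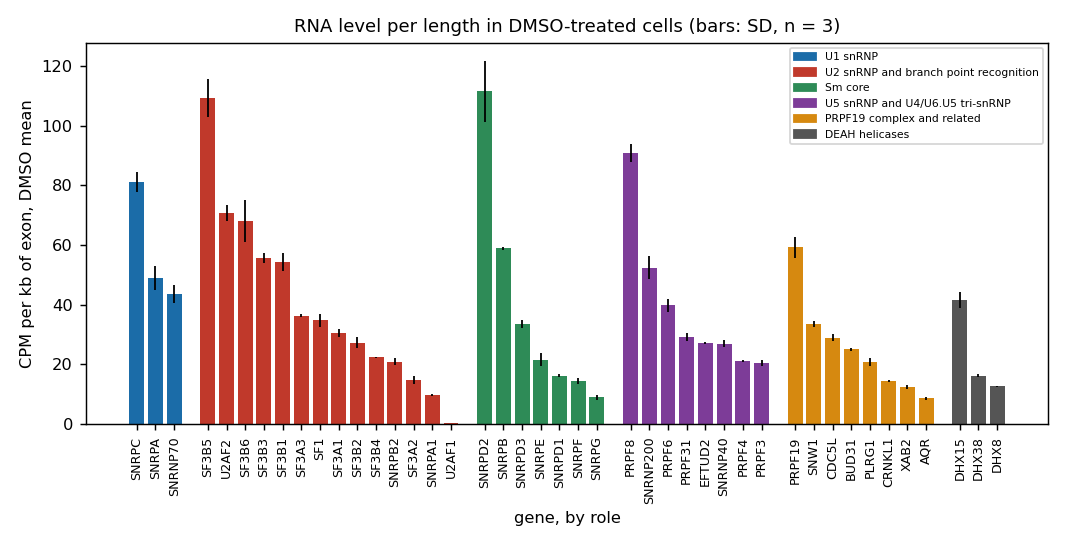
RNA level per length in the DMSO-treated cells, in CPM per kilobase of exon (vertical axis), for each of the 43 genes grouped and colored by role (horizontal axis); bars give the mean and lines the SD of 3 libraries. SNRPD2 at 111 and SF3B5 at 109 CPM per kb stand highest, and U2AF1, at 0.23, is barely visible.

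The lowest value, 0.23 CPM per kb for U2AF1, is uncertain. U2AF1 reads the AG of the acceptor, and 98.7% of the 50-base stretches of its reference transcript also occur in another annotated gene, a near-identical copy that holds only 27 to 76 RNA-seq reads per library. Reads that fit both genes have 2 alignments, and only uniquely aligned reads were counted. For SNRPA1, a U2 protein, 41.6% of the stretches are shared, mainly with a pseudogene, and for SNRPG 24.2%, so their levels are uncertain as well. SF3B4 and SNRPD3 share 14.3% each, SNRPE 12.5% and SNRPF 12.4%, while SF3A1 is among the genes with little or no sharing and SNRNP200 shares 1.12%.

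The first comparison asked whether inducing 4EBP1-4A changed the mRNA levels of these genes. Over all 6 RNA-seq libraries, no member passed the test (edgeR's quasi-likelihood test, adjusted p under 0.05 by Benjamini-Hochberg over 20552 genes), and neither did any other gene, so the background is 0%. The DESeq2 Wald test called 0 members too. At an unadjusted p under 0.05, 8 members were higher with doxycycline and 0 lower, that is 8 of 43 against a background of 9.58% of all genes higher and 4.13% lower. In 13 members every doxycycline library lay above every DMSO library, and in 9 every one lay below, with 21 overlapping. Over all genes tested 17.7% were separated upward and 20.8% downward. The median log2 fold change of the members was −0.05, against −0.04 over all genes. Levels are scaled within each library, so the number of cells and the total RNA per cell cannot be read from them.

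Without doxycycline replicate 3, which leaves 5 libraries, 11 of the 43 members passed the same test over 21234 genes. SF3A1, SF3A2, SF3B2, SF1, PRPF6, SNRNP200 and PRPF19 rose and SNRPE, SNRPG, SF3B6 and SNRPD2 fell. These are 7 and 4 of 43, against a background of 3.25% of genes higher and 3.83% lower. When scaled by library totals alone, the split turned to 12 higher and 1 lower among the members, and to 1420 higher and 333 lower among all genes, from 691 and 813, and the median log2 fold change of all genes shifted from −0.01 to 0.06 (over 6 libraries from −0.04 to 0.10). The median of the members was −0.01, as in all genes tested. The calls depended on single libraries. Leaving out DMSO replicate 1 left SF3A1 alone (285 of all genes), and leaving out DMSO replicate 3 left SF3A1, SF3A2 and SF3B2 (517 of all genes). Leaving out doxycycline replicate 2 as well leaves 1 doxycycline library. The log2 fold change was then 0.34 for SF3A1, 0.18 for SNRNP200, −0.17 for SNRPE and −0.27 for SNRPD2, from 0.43, 0.25, −0.37 and −0.25.

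**Figure D2:**
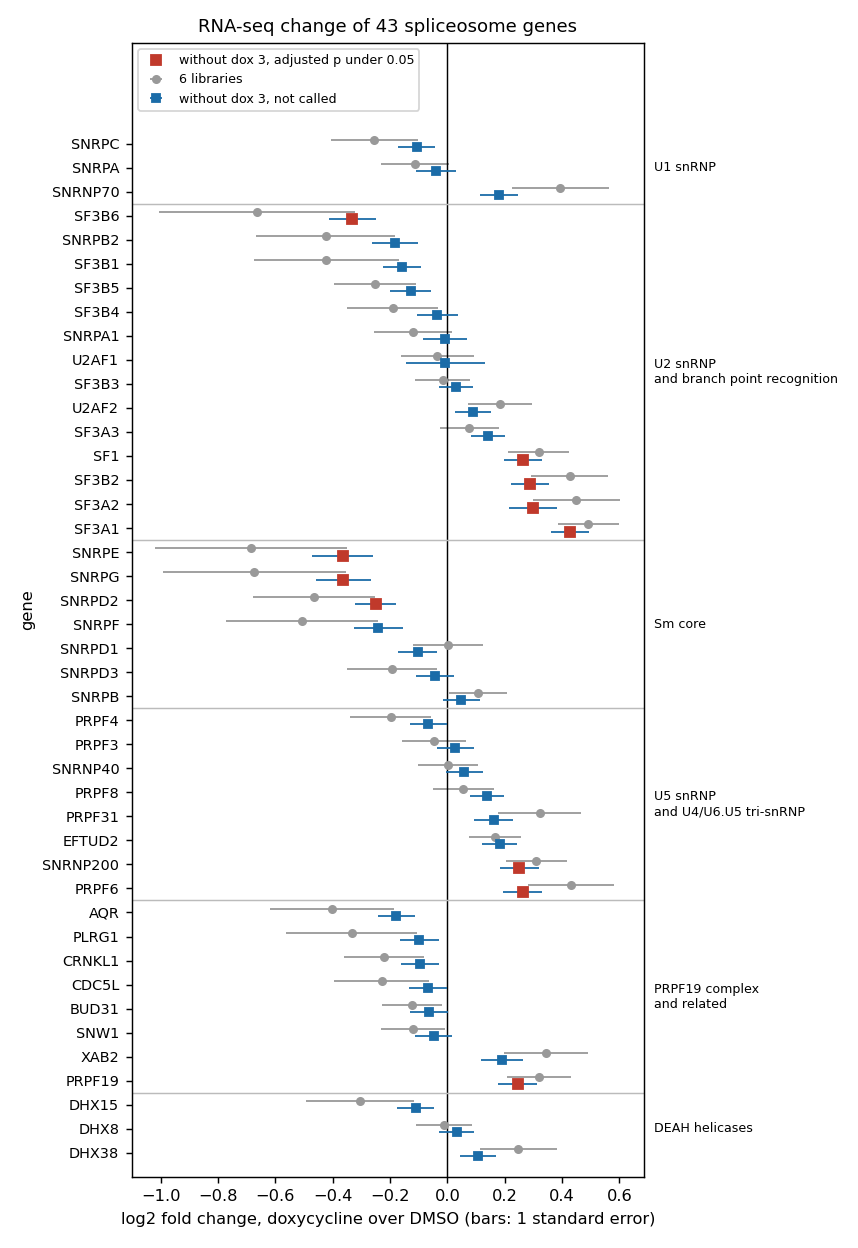
The log2 fold change in RNA level, doxycycline over DMSO (horizontal axis), of the 43 genes by role (vertical axis), over 6 libraries (grey circles) and without doxycycline replicate 3 (squares, red where the adjusted p was under 0.05); lines give 1 standard error. SF3A1 at 0.43 lies highest and SNRPE at −0.37 lowest among the squares, and the errors over 6 libraries are wider.

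Branch point recognition and the U2 snRNP held 4 of the 7 risers. SF3A1, the largest SF3a subunit, which ties SF3a to the U2 snRNA and to SF3b, was at 187.3, 201.5 and 187.5 CPM in DMSO replicates 1, 2 and 3 and at 243.4, 273.7 and 293.1 CPM in doxycycline replicates 1, 2 and 3. All doxycycline libraries lay above all DMSO libraries, and the gap between the groups was wider than the range of the DMSO libraries. Its log2 fold change was 0.43 (SE 0.0664, 1.34-fold, adjusted p = 0.00419) without doxycycline replicate 3 and 0.49 (SE 0.107, adjusted p = 0.326) over 6 libraries, the largest positive value among the members in both. The gene (ENSG00000099995) has 16 exons in its reference transcript and lies on the − strand of GRCh38 at chr22:30331988-30356919.

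SF3A2, which contacts the helix of U2 with the branch point, was at 36.6, 42.6 and 43.3 CPM with DMSO and at 47.4, 53.0 and 66.9 CPM with doxycycline. SF3B2, an SF3b subunit that binds pre-mRNA beside the branch point, was at 249.04, 283.4 and 268.5 CPM with DMSO and at 315.8, 337.5 and 423.6 CPM with doxycycline. SF1, the protein that first reads the branch point and leaves when U2 arrives, was at 193.5, 219.2 and 208.9 CPM with DMSO and at 239.3, 258.8 and 276.8 CPM with doxycycline. In each of the 3 the groups did not overlap, and DMSO replicate 1 was the lowest library. Without doxycycline replicate 3 their log2 fold changes were 0.30 (SE 0.0828, adjusted p = 0.0382), 0.29 (SE 0.0667, adjusted p = 0.0204) and 0.26 (SE 0.0672, adjusted p = 0.0288) in that order. Over 6 libraries they were 0.45, 0.43 and 0.32, each with an adjusted p of 0.326.

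SF3B6, an SF3b subunit, was the U2 member that fell. It was at 83.9, 68.3 and 77.4 CPM with DMSO and at 64.3, 57.5 and 22.6 CPM with doxycycline, and the groups did not overlap although DMSO replicate 2 came close. Its log2 fold change was −0.33 (SE 0.0822, adjusted p = 0.026) without doxycycline replicate 3 and −0.66 (SE 0.342, adjusted p = 0.326) with it. The other 9 U2 and branch point genes did not pass. They ran from −0.18 for SNRPB2, which binds a stem loop of the U2 snRNA, through −0.16 for SF3B1, the clamp around the branch helix, to 0.14 for SF3A3, the third SF3a subunit. U2AF2, which binds the polypyrimidine tract, was at 0.09 and its partner U2AF1 at −0.01, as was SNRPA1. Proteins of the same stable complex thus had values of both signs. Within SF3b, SF3B2 was at 0.29, SF3B3 at 0.03, SF3B4 at −0.03, SF3B5 at −0.13, SF3B1 at −0.16 and SF3B6 at −0.33.

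The Sm ring, which all of the major snRNPs except U6 share, had 3 of its 7 members lower and 0 higher, with a median log2 fold change of −0.24. SNRPE was at 47.8, 39.4 and 47.1 CPM with DMSO and at 39.8, 29.8 and 13.7 CPM with doxycycline. Doxycycline replicate 1 lay just above DMSO replicate 2, so the groups overlapped. SNRPG was at 17.2, 14.4 and 15.7 CPM with DMSO and at 12.7, 11.8 and 4.81 CPM with doxycycline. SNRPD2 was at 174.7, 145.3 and 161.8 CPM with DMSO and at 133.8, 136.7 and 78.1 CPM with doxycycline. For both of them the groups were separate, with doxycycline replicate 3 far under its fellows. Their log2 fold changes without that library were −0.37 for SNRPE (SE 0.105, adjusted p = 0.0426), −0.36 for SNRPG (SE 0.0948, adjusted p = 0.0316) and −0.25 for SNRPD2 (SE 0.0724, adjusted p = 0.0444). With it they were −0.68, −0.67 and −0.47, each with an adjusted p of 0.326, so that 1 library moved each value by more than 1.5 times. SNRPF, at −0.24, missed the threshold with an adjusted p of 0.0904. SNRPD1 at −0.10, SNRPD3 at −0.04 and SNRPB at 0.05, the last being the one Sm protein with a positive value, did not pass either. The Sm calls depended on the scaling: by library totals alone none of the 3 passed, with DESeq2 size factors SNRPD2 did not, and after removal of a trend with GC content SNRPD2 was the one left. No alternative turned the sign of these 3.

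In the U5 snRNP and tri-snRNP, 2 of 8 members rose and 0 fell, and 7 of the 8 values were positive (median 0.15). SNRNP200, the helicase that unwinds U4 from U6 to activate the spliceosome, was at 540.4, 626 and 590.05 CPM with DMSO and at 665.2, 729.6 and 782.6 CPM with doxycycline. PRPF6, which bridges U5 with U4/U6, was at 116.6, 129.1 and 117.4 CPM with DMSO and at 138.1, 152.8 and 199.2 CPM with doxycycline. Both had separate groups. Without doxycycline replicate 3 the log2 fold change of SNRNP200 was 0.25 (SE 0.0685, 1.19-fold, adjusted p = 0.036) and that of PRPF6 was 0.26 (SE 0.068, 1.20-fold, adjusted p = 0.0303). Over 6 libraries they were 0.31 and 0.43, both with an adjusted p of 0.326. EFTUD2, the GTPase of U5, was at 0.18 with an adjusted p of 0.0754, and PRPF31 at 0.16 and PRPF8 at 0.14 did not pass. SNRNP40, a U5 protein, was at 0.06, and the U4/U6 proteins PRPF3 and PRPF4 were at 0.03 and −0.07. SNRNP200 (ENSG00000144028) has 45 exons and lies on the − strand at chr2:96274338-96321271.

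Among the 8 genes of the PRPF19 complex and its partners, 1 rose. PRPF19, the ubiquitin ligase that gives the complex its name, was at 163.1, 183.3 and 172.3 CPM with DMSO and at 193.7, 216.6 and 236.6 CPM with doxycycline. The groups were separate, and its log2 fold change without doxycycline replicate 3 was 0.24 (SE 0.0687, adjusted p = 0.0391), and 0.32 with it (adjusted p = 0.326). XAB2, a scaffold of the active spliceosome, was at 0.19 with an adjusted p of 0.106. The other 6 values, which did not pass, were all negative, from −0.18 for AQR to −0.05 for SNW1, a scaffold and transcription coregulator, with CDC5L, the partner of PRPF19 in the complex, at −0.07. PLRG1 and CRNKL1, further subunits of the active spliceosome, were both at −0.10 and BUD31 at −0.06.

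No gene of the U1 snRNP or of the DEAH-box helicases passed. SNRNP70, which anchors U1 on its first stem loop, had the largest difference in U1. It was at 189.2, 217.4 and 204.8 CPM with DMSO and at 227.8, 234.8 and 340.9 CPM with doxycycline. The groups were separate, yet doxycycline replicate 3 stood well above its fellows, and the log2 fold change of 0.18 without it (SE 0.0668) had an adjusted p of 0.1, against 0.39 with it (adjusted p = 0.326). SNRPC was at −0.11 and SNRPA, which binds another stem loop of U1, at −0.04. DHX15, which takes the spent spliceosome apart, had the largest difference among the helicases, at 363.8, 322.9 and 328.2 CPM with DMSO and at 317.5, 309.8 and 194.3 CPM with doxycycline. Its log2 fold change was −0.11 (SE 0.0654, adjusted p = 0.304) without doxycycline replicate 3 and −0.30 (adjusted p = 0.35) with it. DHX38, which remodels the active site between the steps of splicing, was at 0.11 and DHX8, which releases the mRNA, at 0.03.

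**Figure D3:**
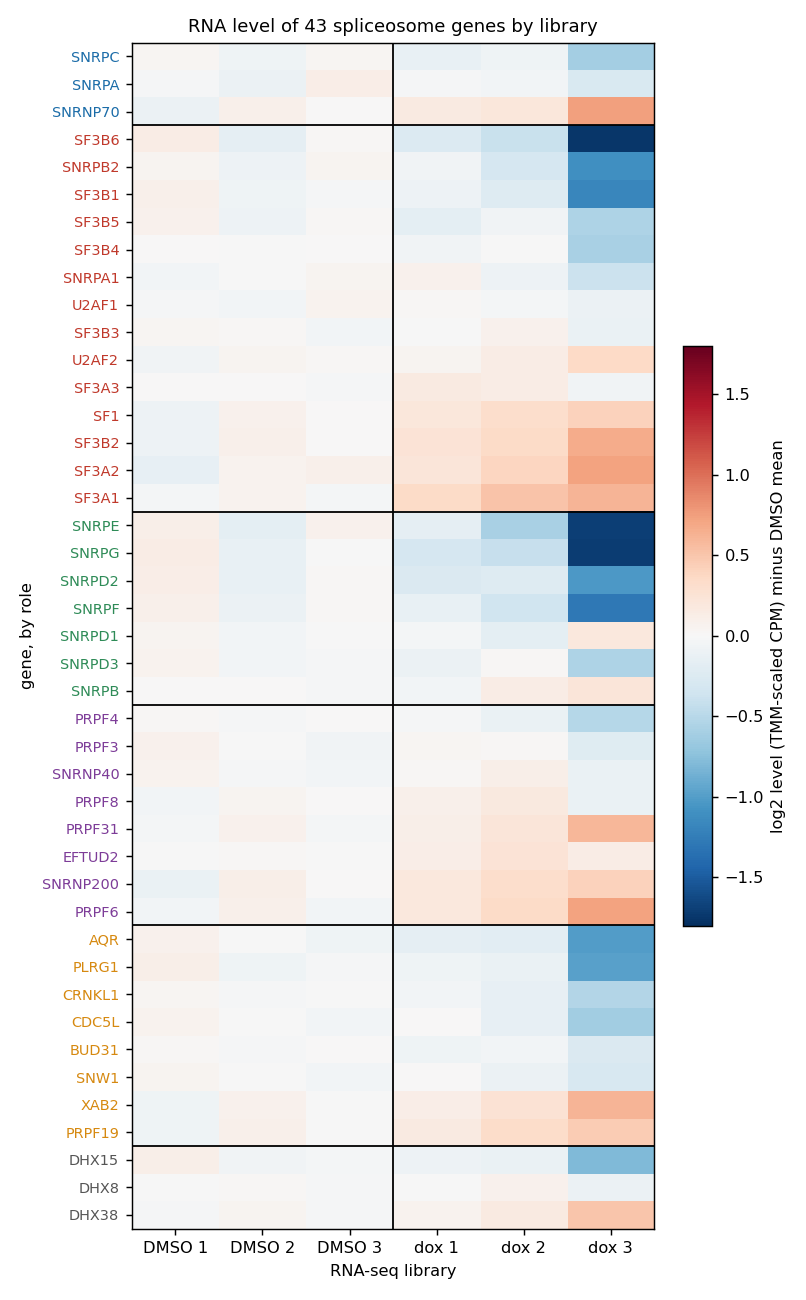
Log2 RNA level (TMM-scaled CPM) minus the DMSO mean of the same gene, as color, for the 43 genes by role (rows) in the 6 RNA-seq libraries (columns; red is higher, blue lower). The column of doxycycline replicate 3 carries the strongest colors of both signs, down to −1.75 for SF3B6 and up to 0.74 for SNRNP70, and replicates 1 and 2 mostly have the same colors in paler form.

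The members that rose and those that fell differed in base composition. GC content of the reference transcripts was 50.7% to 66.5% (median 55.9%) in the 7 risers and 39.2% to 53.8% (median 39.4%) in the 4 fallers. Of the 14 members under 45% GC all 14 had a negative log2 fold change without doxycycline replicate 3, with a median of −0.13, and 3 fell. Of the 13 members at 55% or more, 10 had a positive one, with a median of 0.16, and 4 rose, while of the 16 members between 3 rose and 1 fell. Over the 21068 tested genes with a GC value, the medians in the same classes were −0.14 and 0.14. Under 45% GC 9.31% were called lower and 0.142% higher, and at 55% or more 0.303% lower and 9.62% higher. Across the 43 genes the correlation of log2 fold change with GC content was r = 0.676 without doxycycline replicate 3 and 0.745 over 6 libraries. Across all tested genes with a GC value it was 0.422 and 0.62. These are descriptions, and the points share their libraries.

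The DMSO libraries also differed along GC content. In members under 45% GC the median log2 level, relative to the DMSO mean, was 0.08, −0.07 and −0.01 in DMSO replicates 1, 2 and 3, and it was −0.09, −0.18 and −0.99 with doxycycline. In those at 55% or more it was −0.05, 0.07 and 0.0044 with DMSO, and 0.11, 0.21 and 0.45 with doxycycline. The part of base composition or of alignment in the changes was not tested, except that the test was repeated after the trend with GC had been taken out of each library, a step added after seeing the data. It then called 5 members higher (SF1, SF3A1, SF3A3, SF3B2 and SNRNP200) and 2 lower (SF3B5 and SNRPD2), and 5 of these 7 are among the 11 called without it. Over all 21068 genes of this step, 404 were called higher and 402 lower. SF3A1 and SNRNP200, at 50.7% and 52.3% GC, were called both ways, whereas SF3A2, PRPF6, PRPF19, SF3B6, SNRPE and SNRPG were not called after this step.

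**Figure D4:**
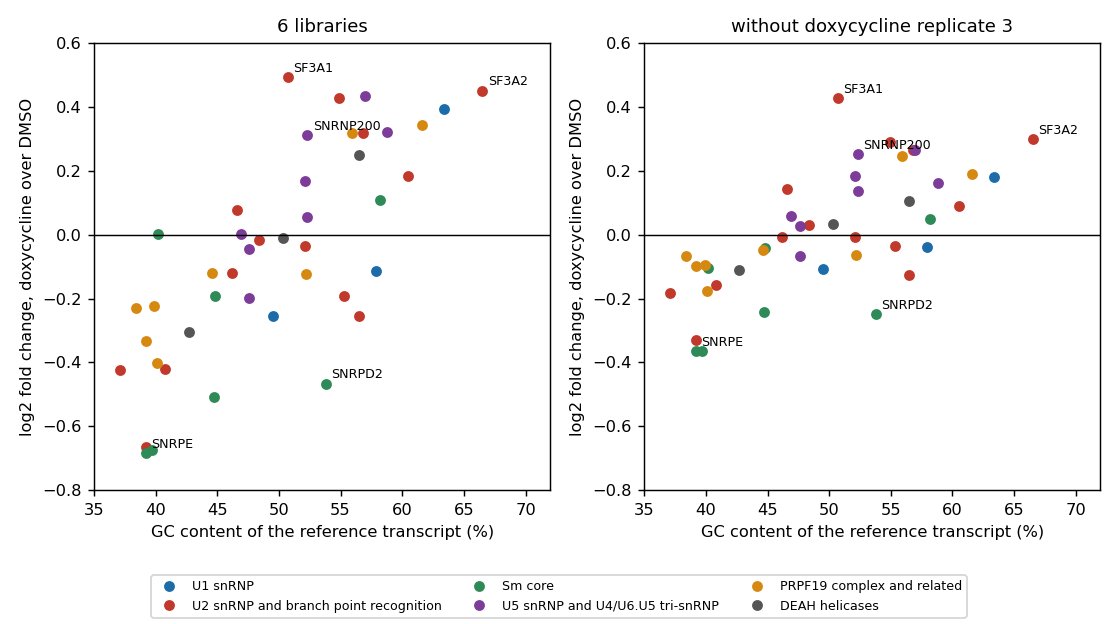
Log2 fold change in RNA level, doxycycline over DMSO (vertical axis), against the GC content of the reference transcript in percent (horizontal axis) for the 43 genes, colored by role, over 6 libraries (left) and without doxycycline replicate 3 (right). Values are higher at higher GC content in both panels (r = 0.745 and 0.676), with SF3A1 above and SNRPD2 below genes of like GC content.

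A further 103 spliceosome genes outside the 43 were looked at in the same way. Without doxycycline replicate 3, 3 of them rose and 2 fell, with a median log2 fold change of −0.04. Both counts are at or below the background of 3.25% and 3.83% of all genes, and over 6 libraries 0 of the 103 passed (7 higher and 1 lower at an unadjusted p under 0.05). CHERP, a U2-associated protein, was the larger riser among the other snRNP factors at 0.37 (adjusted p = 0.0232), where the tri-snRNP protein SART1 rose too (0.25, adjusted p = 0.0464). GEMIN5, which recognizes snRNAs for Sm ring assembly, had a log2 fold change of 0.22 (adjusted p = 0.0373). LSM5 of the LSm ring around U6, the counterpart of the Sm ring, had the larger fall at −0.35 (adjusted p = 0.0309), and LSM3 was at −0.31 (adjusted p = 0.0436). With doxycycline replicate 3 the values were 0.59 for CHERP, 0.60 for SART1, 0.23 for GEMIN5, −0.58 for LSM5 and −0.62 for LSM3, each with an adjusted p of 0.326. GC content was 60.9% in CHERP, 59.6% in SART1 and 47.4% in GEMIN5, and 35.7% in LSM5 and 44.2% in LSM3. None of the 26 other PRPF19, B and C complex proteins, the 10 catalytic step and release factors, the 10 proteins of the minor spliceosome or the 8 of the exon junction complex passed.

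The second comparison asked whether ribosome occupancy of these mRNAs changed. In Ribo-seq the picture was of 1 gene. SNRNP200 held 161020 of the 161725 reads on the 43 genes (99.56%), U2AF2 held 628 and SF3A1 held 36. A total of 25 members had 0 reads in all 6 libraries and 15 had 1 to 7. Outside SNRNP200 the members together stood at 193.8 CPM in the pooled Ribo-seq libraries, against 7049 CPM in RNA-seq, both without TMM scaling. A count of 3 reads corresponds to 4.15 to 7.10 TMM-scaled CPM per library, so a change in ribosome occupancy was not detectable at this depth for the 40 members under 10 reads. Such floors cover counting error only.

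The stretches of SNRNP200 and U2AF2 that hold the last 9 bases of the linker ligated to the footprints are shown because the 2 genes with most Ribo-seq reads are the only members holding them. The linker was trimmed from the footprint reads before alignment. The 9 letters, ACCATCAAT, were searched in both directions in all transcripts of GENCODE release 44. Capitals mark them in 30 bases of the reference transcript of each gene, written 5′ to 3′ in the sense of the mRNA:
SNRNP200: catggacggcACCATCAATgtggatgactt
U2AF2: ccccccgagcACCATCAATcagacgcctgt

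In SNRNP200 the letters lie at chr2:96296611-96296619 of GRCh38, on the − strand, in the coding part of exon 13, within the 30 bases of chr2:96296600-96296629. In U2AF2 they lie at chr19:55669447-55669455, on the + strand, in the coding part of exon 11, and the printed stretch spans a junction of exons. The 2 stretches have 11 bases in a row in common, which are the end of the linker given in the study's methods. In SNRNP200 the base before them matches the linker too. The match thus runs past the capitals, which mark only the letters searched. These 2 of the 43 members held 99.952% of the members' Ribo-seq reads, and the most on any of the other 41 was 36. The letters were searched with the link of SNRNP200 reads to such a stretch known. SNRNP200 alone held 99.56% of the reads, so the share of the pair is no independent result. The reverse complement, ATTGATGGT, occurs in 3 members, none of which is SNRNP200, U2AF2 or SF3A1. Over the 20396 genes of the RNA-seq test found in the annotation, 309 (1.52%) hold the letters in sense. Of those 6.47% had 100 or more footprint reads, and of the genes without the letters 1.06%. Genes with the letters were also longer, with a median of 8538 bases of exon against 4084. For the reverse complement the shares were 2.23% of 403 genes and 1.12%. The counts are sums per gene and do not show where on a transcript the reads lie, so whether they come from these stretches was not tested.

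Footprint reads on SNRNP200 numbered 153, 5502 and 3061 with DMSO (replicates 1 to 3) and 56937, 42206 and 53161 with doxycycline. In CPM without TMM scaling that is 727.9, 7671 and 3054, against 64440, 80400 and 177300. The groups did not overlap, the lowest doxycycline library being 8.40 times the highest DMSO library, although the DMSO libraries were farther apart from each other than that. The means were 3818 ± 3534 (SD, n = 3) and 107400 ± 61050 (SD, n = 3) CPM, a ratio of 28.1 (exact permutation test, two-sided, p = 0.1, the smallest that 3 libraries against 3 allow). With TMM scaling the groups did not overlap either, at 361.9 to 8782 CPM with DMSO and 89480 to 115200 CPM with doxycycline. SNRNP200 alone took 0.0728% to 0.767% of all gene reads with DMSO and 6.44% to 17.7% with doxycycline.

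**Figure D5:**
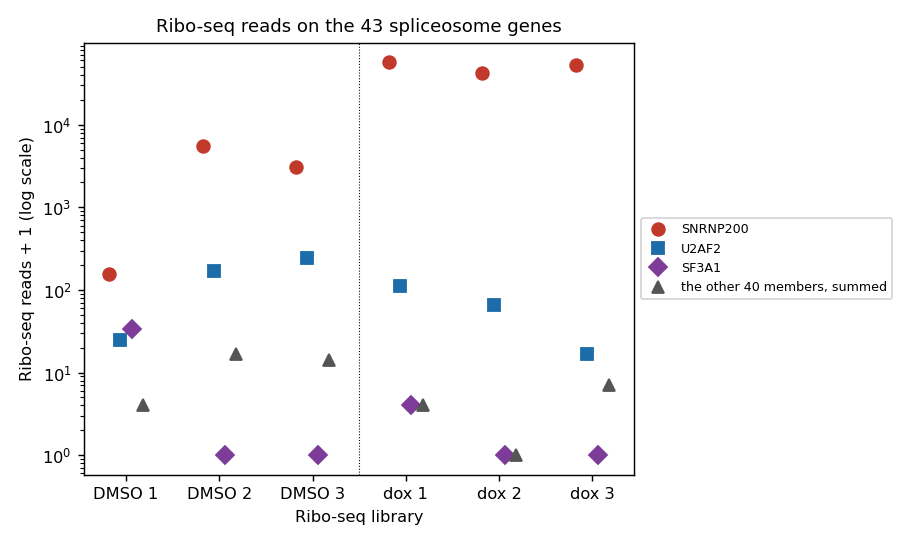
Ribo-seq reads plus 1, on a log scale (vertical axis), in the 6 Ribo-seq libraries (horizontal axis) for SNRNP200, U2AF2, SF3A1 and the sum of the other 40 members. SNRNP200 lies at 153 to 5502 reads with DMSO and at 42206 to 56937 with doxycycline, and the other 40 members together never pass 16 reads.

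Across all 1607 genes of the Ribo-seq test, the log2 fold change of SNRNP200 was 4.57 (SE 1.89, adjusted p = 0.456), and it did not pass. None of the 3 members tested did, against a background of 0%, and 1 of the 3 was under an unadjusted p of 0.05, against 9.15% of all genes. The DESeq2 Wald test called SNRNP200 higher. Translation efficiency (TE), the Ribo-seq change relative to the RNA-seq change, was tested as an interaction over the 12 libraries and 1334 genes. The log2 change in TE of SNRNP200 was 4.26 (SE 1.32, unadjusted p = 0.00693, adjusted p = 0.209), and 0 of 3 members passed against a background of 0.15%. At an unadjusted p under 0.05 it was 1 of 3 against 20.8% of all genes. The test fitted 1 spread per gene to both assays, and the SE of SNRNP200 was smaller than the 1.89 of Ribo-seq alone. The SE and p-values of TE may thus be too small. DESeq2 and edgeR's likelihood ratio test called SNRNP200 higher, and over the alternatives its adjusted p ran from 0.00984 to 0.473. Its RNA level, by comparison, differed by a log2 fold change of 0.31 over the same 6 RNA-seq libraries.

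On U2AF2, 24, 169 and 244 footprint reads were counted with DMSO and 111, 64 and 16 with doxycycline. The groups overlapped, and the log2 change in TE was −0.95 (SE 1.20, adjusted p = 0.756). SF3A1 had 33 reads in DMSO replicate 1, 0 in the other 2 DMSO libraries, and 3, 0 and 0 with doxycycline, so 91.7% of its reads came from 1 library. The log2 change in TE was −4.12 (SE 2.33, adjusted p = 0.339). Summed over the 42 members without SNRNP200, the Ribo-seq level was 285.5, 257.9 and 256.4 CPM with DMSO and 132.4, 121.9 and 73.4 CPM with doxycycline. These sums did not separate the groups on other scales, which were added after seeing the data. With TMM scaling they were 141.9, 295.3 and 355.5 CPM with DMSO and 231.9, 135.7 and 47.7 CPM with doxycycline, and the groups overlapped. Without SF3A1 and without TMM scaling, DMSO replicate 1 stood at 128.5 CPM, just under doxycycline replicate 1 at 129 CPM. Of the 705 reads, 628 lie on U2AF2. The total that CPM divides by includes the reads on SNRNP200, 0.0728% to 0.767% of it with DMSO and 6.44% to 17.7% with doxycycline. The part of this in the lower sums was not tested.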

How the data were processed

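RNA-seq and Ribo-seq of 293T4A cells were analysed in 12 libraries, 3 for each assay and treatment, grouped by their labels. The authors trimmed the linker from the footprint reads, removed ribosomal RNA, mapped the reads with STAR and summed the uniquely aligned ones over the exons of each gene, and these counts were deposited without normalization. The labels name GRCh37 and Ensembl release 75 and the methods also GRCh38, and strand use in counting is not given in the sources used here. Reads without a gene stayed out (69.2% to 94.1% of the RNA-seq totals and 97% to 99.1% of the Ribo-seq totals, non-unique alignments included). So did 186 rows that name no human gene (92 of them ERCC spike-ins). The columns of the authors' comparison of TE in the second deposited table were not used, beyond pairing identifiers with symbols.

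Counts were tested with edgeR 4.0.16 (quasi-likelihood test, TMM factors over all genes, R 4.3.3) on all genes, with Benjamini-Hochberg adjustment at 0.05. RNA-seq needed 10 reads in at least 3 libraries (2 without doxycycline replicate 3), and the Ribo-seq and TE tests needed a sum of 10 reads in each assay used. The scripts were tested on simulated data. Annotation, GC content and 50-base matches came from GENCODE release 44 (GRCh38), of which the GC content is that of the reference transcript, with Python 3.11.15. Alternatives were DESeq2 1.42.0 (size factors, Wald test), library totals, other filters, the likelihood ratio test, robust dispersions, a replicate block, leaving out each replicate and, added after seeing the data, removing the GC trend (lowess, span 30%). The 43 members, their roles and the lists of other spliceosome genes and markers were chosen with earlier results of these data known. Values in every library are given for SF3A1, SNRNP200 and, in each role group, the members called with or without doxycycline replicate 3, or else the one with the largest difference. From the other lists the called genes with the largest rise and fall are named, and LSM3 and SART1 were added after their values were seen.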

Additional observations from a re-analysis of the deposited data

How the results depend on the processing

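Among the 11 members called without doxycycline replicate 3, no alternative turned a direction, while 42 of 154 values lost the call. When scaled by library totals alone, 12 members were higher and 1 lower, against 1420 and 333 of 21234 genes. With the GC trend removed, 5 members were higher and 2 lower, against 404 and 402 of 21068 genes. Leaving out each replicate in turn gave 0 to 9 higher and 0 to 6 lower, where a group left with 1 library was assumed to vary like the other. The adjusted p (edgeR's quasi-likelihood test unless the alternative was another test) of SF3A1 ranged from 2.44e-06 to 0.0744 and that of SNRNP200 from 0.000525 to 0.453. Over all 6 libraries, leaving out 1 replicate gave 0 to 7 higher and 0 to 4 lower, and only leaving out doxycycline replicate 3 gave any. In Ribo-seq the DESeq2 Wald test called 1 member higher, and in TE the Wald test and the likelihood ratio test called 1 each, SNRNP200 in all cases. The causes were not tested. SNRNP200 kept 99.37% to 99.72% of the members' Ribo-seq reads with any 1 library left out.

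Whether the replicate numbers pair the libraries could not be told. Deviations of equally numbered RNA-seq libraries correlated at 0.457, −0.444 and 0.0272, and in Ribo-seq at −0.128, 0.0224 and −0.0573. DMSO replicate 1 and doxycycline replicate 2 of RNA-seq, unequal in number, correlated at 0.484, so this check cannot decide. With the replicate block, 13 members were higher and 8 lower without doxycycline replicate 3, and 0 over 6 libraries. Over all 21234 genes the block called 2066 higher and 2559 lower without that library, against 691 and 813 without the block. Depth limits Ribo-seq, where 40 members had fewer than 10 reads.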
